A study of Mus musculus with 14 samples.

Results

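The 50 genes described here carry a cell through mitosis. They are the mitotic kinases and cyclins, the spindle checkpoint, the kinetochore, the spindle motors, and the proteins of cytokinesis and chromosome structure. The genes were chosen by name for their known roles, and all 50 were found among the 26270 gene identifiers of the count files, 49 by their current symbol and Sgol1 by its older one (now Sgo1). All 50 had enough counts to be tested, with at least 10 counts in every library.

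RNA-seq counts came from 14 libraries of primary mouse embryonic fibroblasts (MEFs) taken from E13.5 embryos and grown in 3% O2. Control cells were Tip60+/+ and knockout (KO) cells were Tip60-/-, the labels naming 250 nM 4-hydroxytamoxifen (4-OHT) as the agent that induced the deletion over 3 or 5 days. That treatment text is the same for every sample, so it does not say separately what control cells received, and the labels name neither the recombinase nor the deleted exons. Day 3 had 3 control (replicates 1 to 3) and 3 KO libraries (replicates 2 to 4), and day 5 had 4 of each genotype. Values below are listed in order of replicate number. By the embryo labels, 4 embryos (litters 136, 153 and 159) supplied the 7 KO libraries and 4 others (litters 218 and 219) the 7 control libraries, so that litter and genotype cannot be told apart. Males gave 5 of the KO and 1 of the control libraries, and a single embryo supplied control replicates 1 and 2 of day 3. The p-values therefore measure the spread between these cultures, some of which share an embryo.

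Total counts ran from 2187168 (KO day 3 replicate 3) to 39203154 (KO day 3 replicate 2), with the other libraries at 6064694 or more. Kat5, the gene for Tip60, was at 18.3 to 21.1 CPM (counts scaled to a common library size) in the KO libraries of day 3 against 31.5 to 32.3 CPM in control, and at 17.3 to 19.9 against 29.8 to 32.1 CPM at day 5. Reads outside the deleted part also count, so the remaining level is not a measure of undeleted cells. The 12 fibroblast markers were all detected in every group, and their summed level moved with the day 3 comparison: 34000 to 38800 CPM in control and 46600 to 57100 CPM in KO at day 3, then 33800 to 48900 CPM and 32000 to 37300 CPM at day 5. At day 3, 5 were higher and 1 lower in KO, and at day 5, 3 were higher and 4 lower. Over all tested genes 24.6% were higher and 26.2% lower at day 3, and 26.3% and 26.2% at day 5. The collagen gene Col1a1 went from 0.95 (log2 fold change, adjusted p = 0.000212) to -0.38 (adjusted p = 0.029), and Col1a2 from 0.59 to -0.475. Lum (3.03, then 2.01) and Pdgfrb (0.53, then 0.51) were higher at both days, and Postn (-1.26, then -1.17) was lower at both. Col3a1 was called at day 3 alone, and Dcn and Thy1 at day 5 alone. Of 10 cartilage and bone markers, 8 were tested, and 7 were higher in KO at day 3 and 6 at day 5. Their summed level was 122 to 214 CPM in control at day 3, 2350 to 2740 CPM in KO at day 3, 232 to 2640 CPM in control at day 5 and 1890 to 3860 CPM in KO at day 5, and the bone gene Ibsp had no counts in any control library. The 7 macrophage markers, 5 of them lower in KO at day 3, summed to 78.4 to 110 CPM in control and 49.7 to 71.9 CPM in KO at that day. At day 5, 1 macrophage marker was higher and 1 lower. Of 6 skeletal muscle markers 3 were tested, and Des, Ttn and Myh3 were all higher in KO at day 3 and not called at day 5. The muscle sum was 55.3 to 106 CPM in control and 101 to 188 CPM in KO at day 3, 84.7 to 120 CPM and 49.8 to 97.6 CPM at day 5, nearly all of it Des, and Myog and Myf5 had no counts in control at day 3. The part of these markers and other cell types in the results below was not tested.

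Mitosis begins when cyclin B and the kinase Cdk1 are switched on together with the Aurora and Polo-like kinases. The kinetochore, built on centromeric chromatin, then attaches each chromosome to the spindle, and the spindle checkpoint holds back the anaphase-promoting complex until every chromosome is attached. Most of the genes involved are transcribed late in the cell cycle and are low in resting cells, so in a bulk sample their mRNA can follow the share of dividing cells. With bulk RNA, fewer dividing cells and less RNA per dividing cell cannot be told apart. Tip60 is a lysine acetyltransferase that acts on histones at promoters and at DNA breaks.

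The mitotic genes were low at day 3 and high at day 5 in both genotypes. The 50 genes summed to 1300, 988 and 1010 CPM in control at day 3 and to 1980, 1490 and 1280 CPM in KO at day 3. At day 5 the sums were 3470, 3530, 3450 and 2340 CPM in control and 2600, 2710, 2800 and 2910 CPM in KO. Every day 5 library was above every day 3 library. Within day 3 the genotypes overlapped, because KO replicate 4 lay just under control replicate 1. Within day 5, 3 controls lay above all KO libraries and control replicate 4, the only male control and the only library of litter 219, lay below them all. That library also held the highest cartilage marker sum among the controls (2640 CPM).

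**Figure D1:**
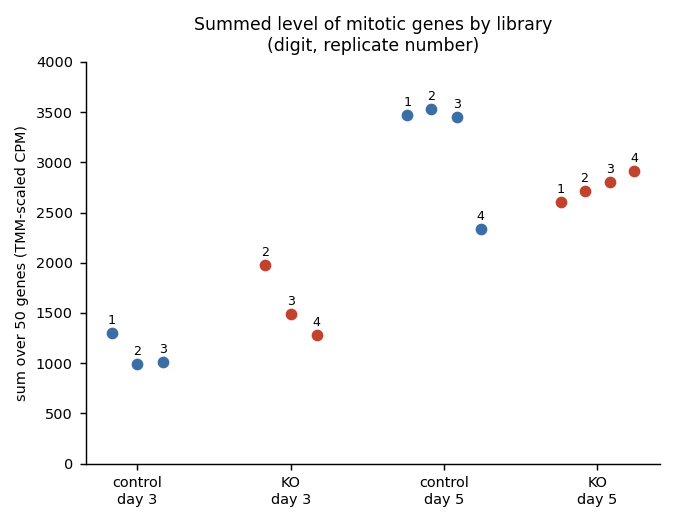
Summed level of the 50 mitotic genes in each of the 14 libraries (y axis, TMM-scaled CPM; x axis, the 4 groups; each point is a library, blue for control and red for KO, with its replicate number). Day 3 libraries sit between 988 and 1980 CPM and day 5 libraries between 2340 and 3530 CPM.

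The order of the group means was the same for most members. For 37 of 50 genes it ran from control day 3 through KO day 3 and KO day 5 up to control day 5, and for 12 the last pair was exchanged. Ube2c was the remaining gene, with KO below control at both days. Levels between genes were compared per kilobase of the deposited gene length. In control cells at day 5 the highest were Ube2c, the ubiquitin-conjugating enzyme of the anaphase-promoting complex (68.2 CPM per kilobase), Top2a, topoisomerase II alpha (52.6), Bub3 of the spindle checkpoint (43.3) and Prc1, which bundles central spindle microtubules (42.4). The lowest were the spindle pole gene Aspm (3.64), the kinetochore gene Cenpk (3.95) and the separase gene Espl1 (4.05).

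Promoters are shown because the members moved together with time, and late cell cycle genes are known to share the cell cycle genes homology region (CHR), bound by the MuvB complexes, and CCAAT boxes, bound by NF-Y. RefSeq promoters (GRCm38.p6, the mm10 assembly, 250 bases before to 50 after a start) were held for 41 of the 50 genes. The genes with no entry in that table are Aurkb, Ccna2, Cdc25c, Foxm1, Spc24, Tpx2, Kif20a, Incenp and Esco2. Searching both strands for TTTGAA or TTCGAA found a CHR match in 32 of the 41 genes (78.0%). This compares with 16.2% of the 10994 tested genes with an entry and 21.7% of all 27025 genes in the table. CCAAT on either strand was found in 31 of 41 (75.6%), against 43.0% of tested genes and 41.1% of all genes in the table. Both were present in 28 members, and 6 members had neither. The lists most like the members came closer for CCAAT, whereas for CHR only the other mitotic genes did. CCAAT was found in 68.8% of S phase genes and 59.3% of other mitotic genes, and CHR in 18.8% and 48.4%. The letters are short, and a match is not a bound site. Of the 47 CHR matches in members, 32 began within 50 bases of the start, on either side. Matches were counted per entry, so sites of Bub3, Prc1 and Ect2 that lie in overlapping entries count in each. Because the entries end 50 bases after the start, every match after it is within that distance, and positions were not counted for other genes. Counting only the bases before the start left 17 of 41 genes (41.5%, against 14.6% of tested genes). The following 150 bases end just before the start, 5′ to 3′ on the gene's strand, with CHR and CCAAT matches on either strand in capitals.
Ect2, chr3:27153879-27154028, minus strand: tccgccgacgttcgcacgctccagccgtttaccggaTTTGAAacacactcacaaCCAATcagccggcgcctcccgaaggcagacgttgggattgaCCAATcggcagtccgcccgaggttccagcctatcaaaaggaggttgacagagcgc
Cdc20, chr4:118437344-118437493, minus strand: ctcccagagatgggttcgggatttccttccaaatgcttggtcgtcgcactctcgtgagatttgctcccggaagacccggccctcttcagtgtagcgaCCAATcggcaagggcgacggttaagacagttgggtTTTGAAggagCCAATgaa
Mki67, chr7:135716380-135716529, minus strand: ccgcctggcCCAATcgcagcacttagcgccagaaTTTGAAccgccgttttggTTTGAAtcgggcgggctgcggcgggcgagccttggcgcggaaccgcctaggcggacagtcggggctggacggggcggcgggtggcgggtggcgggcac
Ncapd2, chr6:125191587-125191736, minus strand: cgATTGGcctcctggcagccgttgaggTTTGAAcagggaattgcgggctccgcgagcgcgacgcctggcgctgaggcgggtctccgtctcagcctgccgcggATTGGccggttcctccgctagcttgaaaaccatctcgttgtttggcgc
In these 4 promoters the CHR lay at position -114 in Ect2, -18 in Cdc20, -116 and -98 in Mki67 and -123 in Ncapd2, counted from the start, Ect2 being shown by 1 of its 2 entries. Plk1 and Hmmr, described below, had theirs just after the start, and Nuf2, Mad2l1 and Nusap1 had neither match in this window. Members were also split by the CHR match. The log2 rise from day 3 to day 5 in control cells had a median of 1.69 in the 32 with and 1.54 in the 9 without, and the KO effect at day 3 a median of 0.62 and 0.71. Among tested genes outside the list, the control rise had a median of 0.04 in the 1753 genes with a CHR match and -0.01 in the 9200 without.

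**Figure D2:**
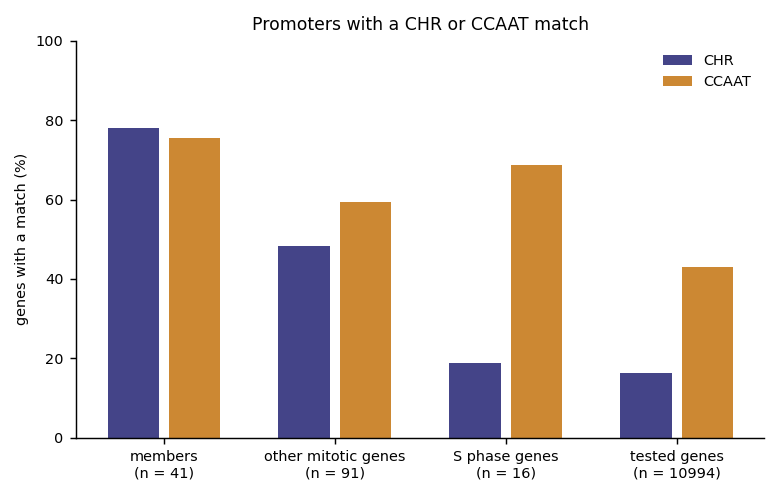
Share of genes (y axis, percent) whose promoter entry holds a CHR or a CCAAT match, for the 50 mitotic genes, other mitotic genes, S phase genes and all tested genes (x axis, with the number of genes that have an entry). The mitotic genes reach 78.0% for CHR, the tested genes 16.2%.

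The comparison at day 3 asks which mitotic genes differ early after the loss of Tip60. In KO cells 32 of the 50 were higher and 0 lower than in control, with a median log2 fold change of 0.64 and a range from -0.42 to 1.37. Over all 14327 tested genes 50.9% were called, 24.6% higher and 26.2% lower, with a median of 0. The called members were between 1.32-fold (Ncapd2) and 2.59-fold (Nuf2) higher. Single libraries moved this count, which was 12 without KO replicate 2, the deepest library and the day 3 library with the highest mitotic sum, 19 without control replicate 2 and 20 without control replicate 3. The other 20 calls were all lost without KO replicate 2. The 12 genes called whichever library was left out were Nuf2, Mad2l1, Plk1, Cenpk, Ect2, Incenp, Cdc20, Esco2, Spc24, Spc25, Hmmr and Nusap1. With sex as a covariate the count was 44. All controls of day 3 were female, and KO replicate 2 was the only female KO library of that day. Within day 3, sex therefore cannot be told apart from that library. The KO libraries lay wholly above control for 21 members and wholly below for 0, against 28.2% and 29.6% of all tested genes.

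At day 5 most members were not called. In KO 2 were higher and 10 were lower, with 38 not called, a median of -0.19 and a range from -0.81 to 0.57. Over all tested genes 52.5% were called at that day, 26.3% higher and 26.2% lower. The groups did not overlap for 1 member higher in KO (Spc24; 23.5% of all tested genes) and 4 lower (Plk1, Bub1b, Ube2c and Kif23; 23.8%). Without control replicate 4, 24 members were lower, and without KO replicate 4 the count of higher genes was 1, Spc24 being lost (adjusted p = 0.0624). With sex as a covariate 5 were lower and 3 higher, and the median was 0.05. Control replicate 4 was the only male control and KO replicate 2 the only female KO library of that day. Taking both days, 25 members were higher in KO at day 3 and not called at day 5, 5 were higher at day 3 and lower at day 5 (Plk1, Ccnb2, Kif20a, Mki67 and Ncapd2), and 2 were higher at both (Cenpk and Spc24). Another 5 were lower at day 5 alone (Bub1b, Ube2c, Cenpa, Kif23 and Birc5), and 13 were called at neither day. How often these patterns occur over all tested genes was not counted. Of the 5 genes called in opposite directions, only Plk1 kept both calls whichever library was left out. Ccnb2, Kif20a, Mki67 and Ncapd2 lost the day 3 call without KO day 3 replicate 2.

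**Figure D3:**
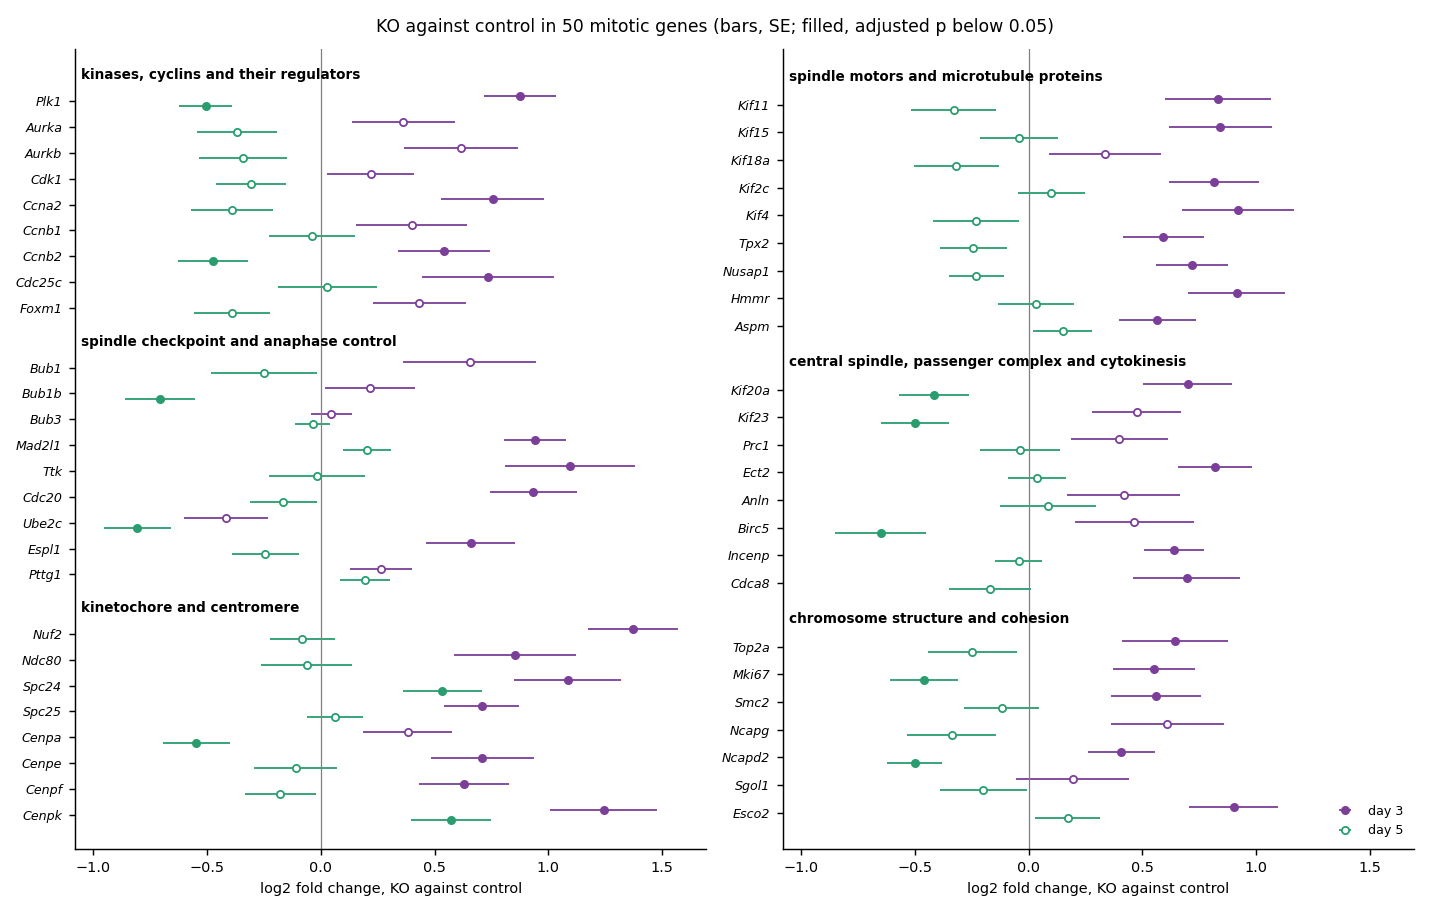
Log2 fold change of KO against control (x axis) for the 50 members by role (y axis), at day 3 in purple and day 5 in green; bars are SE and filled points have an adjusted p below 0.05. Day 3 values lie to the right of day 5 values for all 50 genes in this fit, Bub3, Pttg1, Ccnb1 and Sgol1 turning in some other settings.

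The difference between these effects was itself tested. It was negative for all 50 members (median -0.85, from -1.45 to -0.07), although Bub3 (0.01) and Pttg1 (0.03) turned positive when scaled by library totals only. Ccnb1 (0.068), Bub3 (0.009) and Sgol1 (0.003) turned without KO day 3 replicate 2, and Pttg1 (0.015) with the replicate number as a block. The difference was called for 23 members, all of them lower, against 7.15% of all tested genes called lower and 7.16% higher (14.3% in all). This count fell to 9 without KO day 3 replicate 2, 9 without control day 3 replicate 3 and 11 without control day 3 replicate 2, and rose to 38 without control day 5 replicate 4. With sex as a covariate it was 36, with the same limits as at each day. Plk1, Nuf2, Cdc20, Kif20a, Mki67, Ncapd2, Nusap1 and Mad2l1 were called whichever library was left out. The comparisons at days 3 and 5 share no library, while the difference between them uses all 14.

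Day 5 was then compared with day 3 within each genotype. In control cells 49 of 50 members rose and 0 fell (median 1.62, range 0.29 to 2.42), against 18.3% of all tested genes called higher and 19.9% lower (38.3% in all). Pttg1, the securin gene, was the exception (0.29, adjusted p = 0.0805). In KO cells 41 rose and 0 fell (median 0.83, range 0.22 to 1.30), against 4.98% of all tested genes called higher and 7.06% lower (12.0% in all). That background split turned with the scaling, to 1679 genes higher and 626 lower when library totals alone were used, from 713 and 1012, and all 50 members stayed positive. The rise was larger in control than in KO for all 50 members, though not for Bub3, Pttg1, Ccnb1 or Sgol1 in some of the other settings given above. This gap between the rises is by definition the difference between KO effects given above, so it is not a further result. In KO the day 5 libraries lay wholly above those of day 3 for all 50 genes (13.5% of tested genes, with 13.4% wholly below), and in control for 49 (20.3%, with 22.4% wholly below). The KO count was 21 without KO day 3 replicate 4. Members not called in KO were Aurkb, Cdc25c, Bub1, Pttg1, Kif18a, Kif4, Top2a, Smc2 and Ncapg.

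In all, 3 KO embryos and 2 control embryos gave a library at each day. With the embryo as a block, 38 members rose in KO. The calls of Ccnb1 (adjusted p = 0.0681), Bub3 (0.0938), Ttk (0.0816), Ube2c (0.0681), Prc1 (0.0712) and Anln (0.148) were lost, and those of Kif4 (0.0287), Top2a (0.0288) and Smc2 (0.021) were gained.

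**Figure D4:**
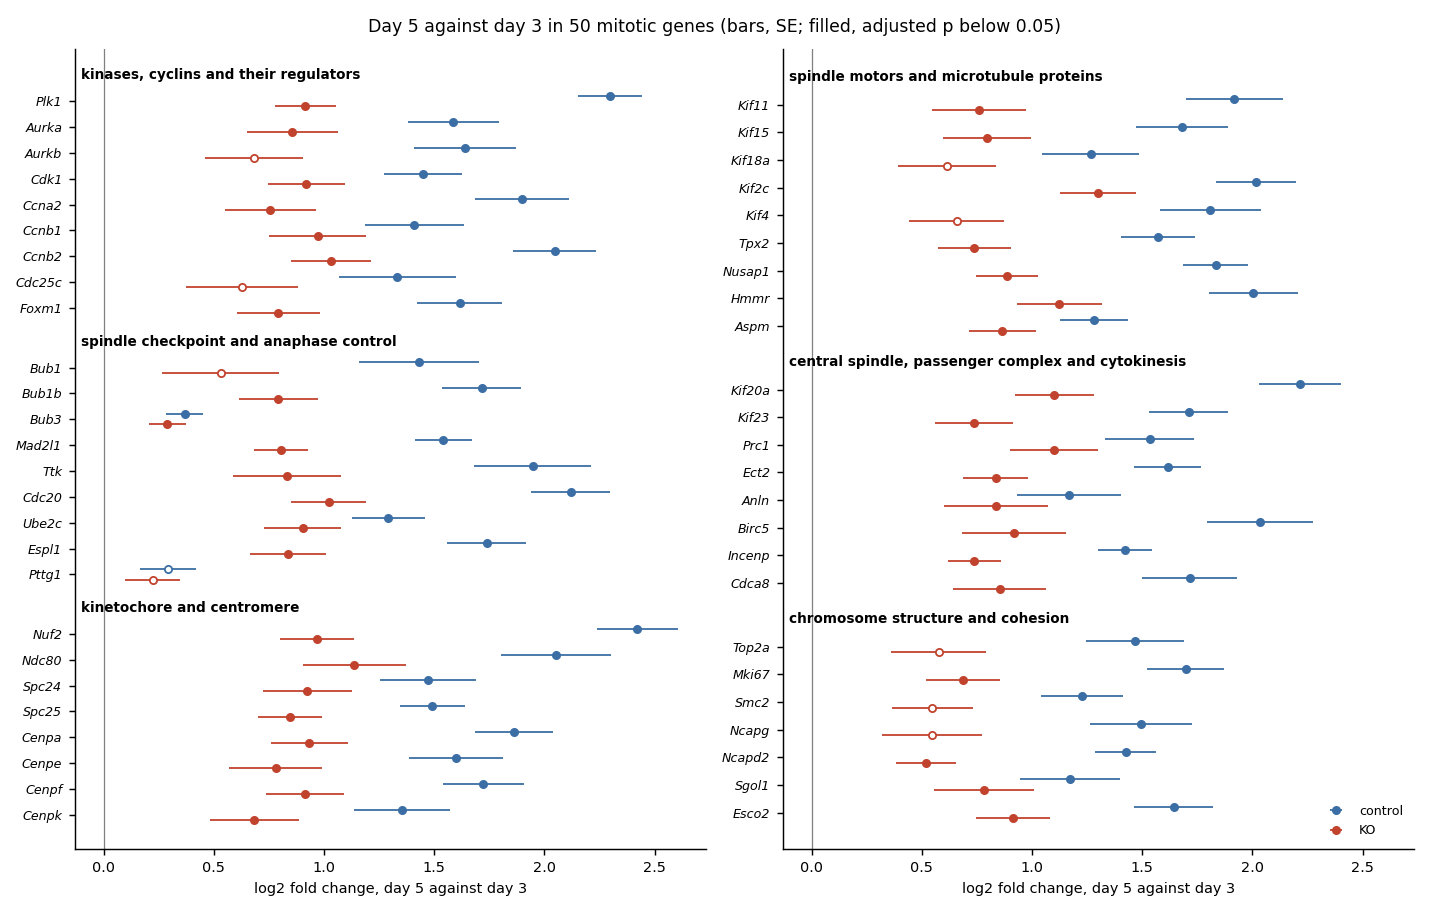
Log2 fold change of day 5 against day 3 (x axis) for the 50 members by role (y axis), in control (blue) and KO (red); bars are SE and filled points have an adjusted p below 0.05. Every blue point lies to the right of its red one in this fit, but not for Bub3, Pttg1, Ccnb1 and Sgol1 in some other settings.

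Among kinases, cyclins and their regulators, 4 of 9 were higher at day 3 and 2 lower at day 5, and all 9 rose with time in control. For this and each role group below, the shares over all tested genes were 24.6% higher and 26.2% lower at day 3. They were 26.3% and 26.2% at day 5, and 18.3% rose in control. A count of 2 lower genes at day 5 in a group of 7 or 9 lies near its share. Plk1, the Polo-like kinase of mitotic entry and cytokinesis, stood at 9.59, 10.0 and 7.93 CPM in control and 19.7, 15.0 and 14.4 CPM in KO at day 3. It then reached 49.4, 47.8, 47.1 and 36.7 CPM in control and 28.8, 30.3, 34.0 and 34.5 CPM in KO at day 5. The groups did not overlap at either day, with KO above control at day 3 and below it at day 5. The log2 fold change was 0.88 ± 0.157 (SE, adjusted p = 0.000387) and then -0.51 ± 0.117 (adjusted p = 0.00238), a difference of -1.38 ± 0.196 (adjusted p = 0.000631). Control cells gained 4.92-fold between the days and KO cells 1.89-fold.

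Ccna2, cyclin A2, which partners Cdk1 and Cdk2, was at 36.3, 24.5 and 28.7 CPM in control and 65.6, 45.6 and 36.6 CPM in KO at day 3. At day 5 it was at 124, 125, 118 and 77.2 CPM in control and 81.7, 84.5, 82.5 and 90.2 CPM in KO. KO was above control at day 3 by a narrow margin, and the day 5 groups overlapped through control replicate 4. The KO effect was 0.76 ± 0.225 at day 3 (adjusted p = 0.0135; 0.113 without KO replicate 2) and -0.39 ± 0.182 at day 5 (adjusted p = 0.0887). Ccnb2, cyclin B2, was higher at day 3 (0.54, adjusted p = 0.0379) and lower at day 5 (-0.47, adjusted p = 0.0188), and Cdc25c, the phosphatase that activates Cdk1, was higher at day 3 (0.73, adjusted p = 0.0476), a call lost in 12 of the 14 fits that left out 1 library (adjusted p up to 0.389, without KO replicate 2). The other members of this group were not called at day 3: Aurka (0.36), Aurkb (0.62), Cdk1 (0.22), Ccnb1 (0.40) and the late cell cycle transcription factor Foxm1 (0.43). A transcribed pseudogene, Ccnb1-ps, took 26.1% to 37.5% of the counts of the pair, so that the level of Ccnb1 is uncertain.

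Of the genes of the spindle checkpoint and of anaphase control 4 of 9 were higher at day 3 and 2 lower at day 5. Mad2l1, which encodes the checkpoint protein Mad2, was at 17.4, 15.0 and 15.0 CPM in control and 31.9, 35.2 and 25.2 CPM in KO at day 3. Its day 5 levels were 43.5, 49.9, 51.8 and 38.6 CPM in control and 49.4, 49.9, 54.0 and 57.9 CPM in KO. KO lay above control at day 3 and the groups overlapped at day 5. KO differed from control by 0.94 ± 0.138 (adjusted p = 7.42e-05) and then 0.20 ± 0.107 (adjusted p = 0.123), a difference of -0.74 ± 0.174 (adjusted p = 0.0128).

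Cdc20, the activator of the anaphase-promoting complex that the checkpoint restrains, had 19.2, 12.4 and 11.1 CPM in control and 31.8, 24.0 and 23.0 CPM in KO at day 3. It had 63.2, 67.6, 65.2 and 49.1 CPM in control and 50.7, 53.1, 55.1 and 59.6 CPM in KO at day 5. Again only the day 3 groups were apart. As a log2 fold change, KO against control gave 0.93 ± 0.191 (adjusted p = 0.00117) at day 3 and -0.17 ± 0.147 (adjusted p = 0.362) at day 5. The checkpoint kinase gene Ttk (1.10, adjusted p = 0.00579) and Espl1 (0.66, adjusted p = 0.0115) were higher at day 3 too. Ube2c was the only member with a negative value at day 3 (-0.42, adjusted p = 0.0737), and it had the strongest fall at day 5 (-0.81 ± 0.147, adjusted p = 0.00045), with 34.0, 31.2, 38.1 and 42.0 CPM in KO, all below the 68.3, 70.3, 64.2 and 51.1 CPM of control. Its day 3 values were 29.3, 25.0 and 23.6 CPM in control and 24.5, 14.1 and 16.1 CPM in KO, and without KO replicate 2 it was the 1 member called lower at that day. Bub1b, the checkpoint kinase BubR1, was not called at day 3 (0.22) and was lower at day 5 (-0.70 ± 0.153, adjusted p = 0.00165). Bub1 (0.65), Bub3 (0.05) and Pttg1 (0.27) were not called at day 3. Bub3 and Pttg1 were also the members that changed least with time, by 0.37 and 0.29 in control.

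Of the kinetochore and centromere genes 7 of 8 were higher at day 3, with a median of 0.78, against 0.81 for the spindle motors and microtubule proteins. Nuf2 and Cenpk had the widest day 3 differences of the 50. Nuf2 and Ndc80 form the part of the Ndc80 complex that grips microtubules, and Spc24 and Spc25 the part that faces the centromere. Nuf2 was at 9.82, 5.68 and 7.47 CPM in control and 22.7, 18.3 and 16.4 CPM in KO at day 3. At day 5 it was at 40.0, 43.9, 46.6 and 32.0 CPM in control and 34.5, 38.9, 37.7 and 42.3 CPM in KO. The clear gap of day 3 was not there at day 5. The KO effect went from 1.37 ± 0.196 (adjusted p = 6.09e-05) to -0.08 ± 0.143 (adjusted p = 0.662), and the difference of -1.45 ± 0.242 (adjusted p = 0.00175) was the widest of all members. Control cells gained 5.36-fold with time and KO cells 1.96-fold.

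Cenpk, a subunit of the constitutive centromere network, was one of the 2 members higher at both days. It was at 2.63, 2.26 and 3.64 CPM in control and 7.04, 8.45 and 5.43 CPM in KO at day 3, and at 6.69, 8.72, 7.17 and 6.33 CPM in control and 8.50, 12.1, 10.5 and 12.2 CPM in KO at day 5. KO was above control at day 3, and at day 5 a single control library reached above the lowest KO library. The KO effect was 1.24 ± 0.236 (adjusted p = 0.000605) and 0.57 ± 0.174 (adjusted p = 0.013), and their difference was not called (-0.67 ± 0.294, adjusted p = 0.143). Spc24 was the other gene higher at both days (1.08, adjusted p = 0.00163, and 0.54, adjusted p = 0.0183), with no overlap of the groups at either. Ndc80 (0.85), Spc25 (0.71), the kinesin gene Cenpe (0.71) and Cenpf (0.63) were higher at day 3. Cenpa, the histone H3 variant that marks centromeres, was not called at day 3 (0.38) and was lower at day 5 (-0.55 ± 0.147, adjusted p = 0.00627).

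Of the spindle motors and microtubule proteins 8 of 9 were higher at day 3 and 0 were called at day 5. Nusap1, a microtubule-bundling protein of the spindle, was at 11.3, 10.1 and 10.5 CPM in control and 21.5, 15.5 and 13.6 CPM in KO at day 3. Its day 5 levels were 41.6, 38.7, 40.1 and 31.0 CPM in control and 31.7, 31.6, 31.2 and 34.5 CPM in KO. KO was the higher group at day 3, and at day 5 it lay below 3 of the 4 controls. KO differed from control by 0.72 ± 0.159 (adjusted p = 0.00188) and -0.23 ± 0.121 (adjusted p = 0.125), with a difference of -0.95 ± 0.2 (adjusted p = 0.00689).

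Hmmr, a hyaluronan receptor that also binds spindle microtubules, was at 23.7, 14.8 and 19.2 CPM in control and 45.5, 34.3 and 26.5 CPM in KO at day 3. At day 5 the levels were 86.1, 78.2, 86.0 and 57.3 CPM in control and 78.0, 79.3, 76.7 and 80.4 CPM in KO. The genotypes were apart at day 3 and overlapped at day 5. As a log2 fold change, KO against control gave 0.91 ± 0.212 (adjusted p = 0.003) and then 0.03 ± 0.167 (adjusted p = 0.88). The kinesins Kif4 (0.92), Kif15 (0.84), Kif11 (0.83) and Kif2c (0.81), the Aurora A activator Tpx2 (0.59) and Aspm (0.57) were higher at day 3, and Kif18a was not called (0.34). Kif2c, which depolymerises microtubules at centromeres, had the largest gain with time in KO (1.30 ± 0.174, adjusted p = 0.000286).

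Central spindle, passenger complex and cytokinesis genes were higher in 4 of 8 cases at day 3 and lower in 3 at day 5. Ect2, the exchange factor that switches on RhoA for the cleavage furrow, was at 23.9, 21.6 and 19.6 CPM in control and 46.2, 38.5 and 29.0 CPM in KO at day 3. It was at 72.0, 70.6, 71.5 and 51.6 CPM in control and 63.3, 69.3, 68.5 and 71.3 CPM in KO at day 5. The day 3 gap closed as control gained 3.07-fold and KO 1.78-fold. The KO effect was 0.82 ± 0.162 (adjusted p = 0.000865) and then 0.04 ± 0.129 (adjusted p = 0.832).

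Incenp, the scaffold of the chromosomal passenger complex, had 19.5, 17.9 and 16.1 CPM in control and 28.7, 30.1 and 25.2 CPM in KO at day 3, and 53.6, 53.2, 46.0 and 37.5 CPM in control and 43.4, 46.7, 46.4 and 48.6 CPM in KO at day 5. The day 3 groups were well apart, and the KO effect of 0.64 ± 0.133 (adjusted p = 0.00118) moved to -0.04 ± 0.104 (adjusted p = 0.751). Kif20a, a kinesin of the central spindle, had 28.5, 18.4 and 20.5 CPM in control and 44.8, 28.2 and 32.0 CPM in KO at day 3, and 115, 115, 107 and 78.7 CPM in control and 73.7, 73.7, 83.7 and 80.2 CPM in KO at day 5. KO overlapped control through 1 library at day 3 and 2 at day 5. KO differed from control by 0.70 ± 0.195 (adjusted p = 0.00904; 0.079 without KO replicate 2) and -0.42 ± 0.155 (adjusted p = 0.0366; at most 0.0975, without control replicate 2), a difference of -1.12 ± 0.249 (adjusted p = 0.0104). Cdca8, the passenger protein borealin, was higher at day 3 (0.69, adjusted p = 0.0247). Birc5, the passenger protein survivin, and Kif23 were not called at day 3 (0.47 for each) and were lower at day 5 (-0.65 and -0.50). The cytoskeletal scaffold gene Anln (0.42) and Prc1 (0.40) were not called at day 3.

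For chromosome structure and cohesion 5 of 7 genes were higher at day 3 and 2 lower at day 5. Esco2, which acetylates cohesin in S phase, was at 3.54, 3.66 and 4.11 CPM in control and 7.99, 7.04 and 5.84 CPM in KO at day 3, and at 13.9, 11.6, 13.0 and 8.80 CPM in control and 12.4, 14.8, 13.6 and 12.5 CPM in KO at day 5. KO was clearly above control at day 3 (0.90 ± 0.195, adjusted p = 0.00158), and the groups overlapped at day 5 (0.17 ± 0.143, adjusted p = 0.327).

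Mki67, the gene for the proliferation marker Ki-67, was at 71.2, 63.4 and 57.6 CPM in control and 107, 93.5 and 79.6 CPM in KO at day 3. At day 5 it reached 236, 226, 233 and 136 CPM in control and 136, 152, 156 and 159 CPM in KO. The genotypes were apart at day 3 and would have been at day 5 but for control replicate 4. As a log2 fold change, KO against control gave 0.55 ± 0.18 (adjusted p = 0.0213; 0.104 without KO replicate 2) and -0.46 ± 0.15 (adjusted p = 0.0199; at most 0.0611, without control replicate 1), a difference of -1.01 ± 0.235 (adjusted p = 0.0128). Ncapd2, a subunit of condensin I, had 43.3, 36.6 and 35.8 CPM in control and 57.5, 48.8 and 45.5 CPM in KO at day 3, and 109, 116, 114 and 75.3 CPM in control and 69.0, 76.5, 71.1 and 76.0 CPM in KO at day 5. Its KO effect turned from 0.41 ± 0.147 (adjusted p = 0.032; 0.17 without KO replicate 2) to -0.50 ± 0.12 (adjusted p = 0.00311). Top2a (0.64) and the condensin ATPase gene Smc2 (0.56) were higher at day 3, whereas Ncapg (0.61) and Sgol1, which guards centromeric cohesion (0.19), were not called.

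**Figure D5:**
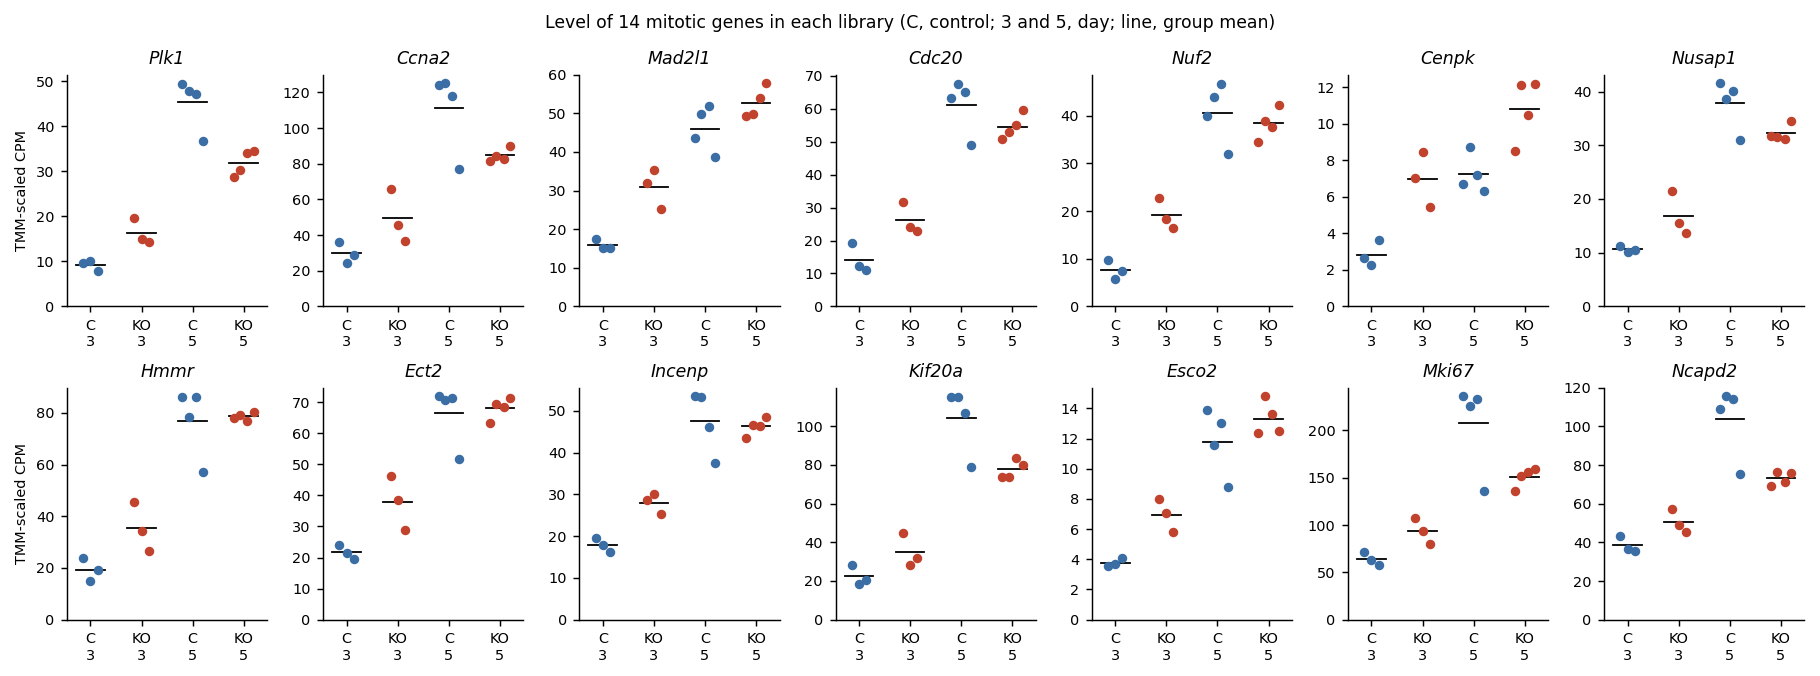
Level of the 14 genes given in full (y axis of each panel, TMM-scaled CPM from 0; x axis, control (C, blue) and KO (red) at days 3 and 5; each point is a library and the line is the group mean). The lowest day 5 control in all 14 panels is replicate 4, for example 136 CPM for Mki67 against 226 to 236 CPM in the other controls.

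For comparison, 109 other genes of mitosis, outside the 50, were counted. At day 3, 38 were higher and 14 lower in KO (median 0.29), against 24.6% and 26.2% of all tested genes. At day 5, 10 were higher and 25 lower (median -0.09), against 26.3% and 26.2%, neither count lying above its share. The KO effect was lower at day 5 than at day 3 for 18 and higher for 2, against 7.15% and 7.16%. With time 80 rose and 3 fell in control (all tested genes, 18.3% and 19.9%), and 54 rose and 2 fell in KO (4.98% and 7.06%). Among the 109 were the other spindle and cytokinesis genes, with 11 of 22 higher at day 3, 20 of 22 rising in KO and 21 in control. Of 17 genes of the anaphase-promoting complex and its regulators 3 were higher and 1 lower at day 3, and 1 rose in KO. Both of these day 3 counts lay below the shares over all tested genes. Nsl1 of the Mis12 kinetochore complex was higher in KO at both days (1.35 ± 0.168, adjusted p = 1.93e-05, and 0.71 ± 0.121, adjusted p = 0.000254). The mitotic kinase gene Pbk was higher at day 3 (1.23 ± 0.191, adjusted p = 0.000121), and Lin52 of the MuvB core at day 5 (0.72 ± 0.152, adjusted p = 0.00132). The kinetochore gene Zwint was lower in KO at day 3 (-0.665 ± 0.091) and at day 5 (-0.80 ± 0.076). Psrc1, a microtubule regulator, was lower at day 3 (-0.64 ± 0.087) and at day 5 (-0.70 ± 0.071). The cohesin regulator Pds5a was lower at day 3 (-0.57 ± 0.071) and at day 5 (-0.60 ± 0.061). The day 5 effect minus the day 3 effect was negative for Pbk (-1.12 ± 0.234, adjusted p = 0.00641), which went from 1.23 to 0.10, and for Anapc4 (-0.42 ± 0.089, adjusted p = 0.00715), which went from -0.05 to -0.47. It was positive for Lin52 (0.76 ± 0.239, adjusted p = 0.0474), which went from -0.04 to 0.72, and for Anapc16 (0.45 ± 0.129, adjusted p = 0.0307), which went from -0.21 to 0.25. Of the 14 fits that left out 1 library, 12 lost the call of Lin52 and 8 that of Anapc16. Of 20 S phase genes 8 were higher and 2 lower at day 3 (all tested genes, 24.6% and 26.2%). At day 5, 0 were higher and 7 lower (26.3% and 26.2%). Between the days 18 rose in control (18.3%) and 13 in KO (4.98%). Their KO effect was lower at day 5 than at day 3 for 8 and higher for 0 (7.15% and 7.16%), with a median difference of -0.71.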

How the data were processed

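Poly(A) RNA of 14 MEF cultures was sequenced as stranded paired-end libraries, per the labels' protocols. The deposited files hold read counts per Entrez gene, made by the authors with featureCounts on mm10, per the submitters' processing notes; no source used here gives the aligner, annotation or strand setting. The 909 of 27179 rows without a gene identifier (0.194% to 0.315% of counts) and 112 genes (Y-linked, Xist and Tsix) were left out. Counts were tested with edgeR 4.0.16 in R 4.3.3 (default expression filter, TMM scaling, robust quasi-likelihood fit, 1 mean per group over all 14 libraries). P-values were adjusted by Benjamini-Hochberg over 14327 tested genes, with 0.05 as the threshold for a call. CPM values are TMM-scaled, and ± gives the SE of a log2 fold change. The fits were tested on simulated data. The members and lists were chosen with earlier results of these data known. Values of every library are given for the 14 genes that had, within their role, the 2 smallest p-values at day 3 or the smallest p for the difference between days. Exceptions at day 3, genes called at day 5 and the extremes of the other mitotic list are named besides. Promoters shown are those of such genes with a CHR in the 150 bases before the start, smallest day 3 p first, the restriction to these bases being made after the matches were seen. Alternatives covered scaling, filters, DESeq2 1.42.0, limma 3.58.1, sex, embryo and each library left out. Embryo labels pair libraries across days, and same-embryo deviations correlated at -0.023 to 0.204.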

Additional observations from a re-analysis of the deposited data

Results flagged for a closer look

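Control day 5 replicate 4 was set apart from the other 3 controls of its day in 16 of 51 values tested (the 50 genes and Kat5), each time as the lowest library. Its gap to the next library, as a share of the group's range, was 0.855 for Cdk1, 0.872 for Ccna2, 0.956 for Cdc25c, 0.877 for Bub1, 0.913 for Bub1b, 0.887 for Bub3, 0.899 for Cenpe, 0.876 for Kif11 and 0.918 for Kif18a. It was 0.932 for Ect2, 0.888 for Cdca8, 0.838 for Top2a, 0.904 for Mki67, 0.87 for Ncapg, 0.831 for Ncapd2 and 0.889 for Sgol1. Among KO libraries of day 5 the same measure singled out 3 of 51 values, Aurka high in replicate 3 (0.924) and Nusap1 (0.846) and Ncapg (0.848) high in replicate 4. Chance alone sets a library apart in about 1 in 20 groups, and genes that rise and fall together are not separate tests.

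The KO effect differed between the days for 23 members by the interaction test, each time lower at day 5. Of these, 8 were called in all 14 fits that left out 1 library, and the count fell to 9 without KO day 3 replicate 2 or control day 3 replicate 3. The calls of Birc5, Cenpf, Hmmr and Spc25 were each lost in 11 of the 14 fits and that of Tpx2 in 6. On the log2 scale the difference was -1.38 for Plk1, -1.14 for Ccna2 and -1.01 for Ccnb2 among kinases and cyclins. For checkpoint and anaphase genes it was -0.92 for Bub1b, -0.74 for Mad2l1, -1.10 for Cdc20 and -0.90 for Espl1. Kinetochore genes gave -1.45 for Nuf2, -0.65 for Spc25, -0.93 for Cenpa and -0.81 for Cenpf. Spindle genes gave -1.16 for Kif11, -1.15 for Kif4, -0.83 for Tpx2, -0.95 for Nusap1 and -0.88 for Hmmr. Central spindle and passenger genes gave -1.12 for Kif20a, -0.97 for Kif23, -0.78 for Ect2, -1.12 for Birc5 and -0.68 for Incenp. The chromosome genes Mki67 and Ncapd2 gave -1.01 and -0.91.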

How the results depend on the processing

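No direction turned for the day 5 against day 3 values of any member in the 26 other settings. With library totals only, the median of all genes shifted to 0.13 in the KO day comparison, where 1679 genes were higher and 626 lower, Incenp turned at day 5 (0.021), and the difference between days turned for Bub3 (0.012) and Pttg1 (0.031). With sex as a covariate 5 members were lower at day 5 and 36 in the difference, and Nuf2 (0.076) and Incenp (0.061) turned at day 5. In each group at most 1 library was of the less common sex, so sex cannot be told apart from single libraries. A further setting left out KO day 3 replicate 3, control day 5 replicate 4 and control day 3 replicate 2 together. There, 1 member was higher and 23 lower at day 5, with Hmmr at -0.087 and Ect2 at -0.072. Counting only bases before the start gave a CHR share of 41.5%.

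Leaving out each library in turn gave 12 to 40 members higher and 0 to 1 lower at day 3, 1 to 2 higher and 7 to 24 lower at day 5, 9 to 38 lower in the difference, and 21 to 47 rising in KO. Over all genes the difference between days ranged from 657 to 1336 higher and 618 to 1414 lower, and the KO day comparison from 300 to 1139 higher. Some values turned. At day 3 they ranged from -0.112 to 0.387 for Cdk1, -0.107 to 0.6 for Ccnb1, -0.044 to 0.12 for Bub3 and -0.202 to 0.368 for Sgol1, and the difference between days from -0.635 to 0.068 for Ccnb1, -0.152 to 0.009 for Bub3 and -0.604 to 0.003 for Sgol1, turning without KO day 3 replicate 2 each time. At day 5 Incenp ranged from -0.146 to 0.02, turning without control replicate 1 or 2 (0.017), Hmmr from -0.084 to 0.095 and Ect2 from -0.068 to 0.079, both turning without control replicate 4. The cause of these shifts was not tested.

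Between genotypes the libraries share only a replicate number. With it as a replicate block, 36 members were higher at day 3, adding Aurkb (adjusted p = 0.0311), Bub1 (0.0224), Kif23 (0.0422) and Ncapg (0.0216), 33 were lower in the difference, and Pttg1 turned there (0.015). Same-numbered libraries of day 5 correlated at -0.166 to 0.428, and not every library correlated best with its own number. The library of 2187168 counts limits the precision of low genes such as Cenpk and Spc24.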
